A study of Homo sapiens with 96 samples.

Results

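The effect of adding GSK591 to MS023 for 4 days was measured on pre-mRNA splicing in A549 cells, a human lung adenocarcinoma line. The 2 groups, each of 3 poly(A)-RNA libraries, were compared, 6 of the 96 samples of the series. The co-treated cells received 1 µM GSK591 and 1 µM MS023, and the reference cells received 1 µM MS023 alone. For comparison, the levels in cells kept in 0.01% DMSO or in 1 µM GSK591 alone for 4 days are given beside them. Co-treated and MS023-treated cells at 2 days are used as a second time point. The members were chosen by position: a splicing event had to have the same type, chromosome, strand and coordinates in the table of each group, which held for 108799 of the 162501 events listed in either. All 14 genes of a list of A549 markers had events with at least 10 reads in every library, whereas none of 10 blood cell markers did and 2 of 8 fibroblast markers did (COL1A1 and THY1). The labels number the libraries of a group but do not say that they are separate cultures, so the spread between these libraries may be technical. The p-values of single events rest on read counts and on this spread, partly pooled over the events of a type. The RNA is from bulk cultures, in which fewer cells with a form and less of it per cell cannot be told apart. All coordinates are in hg19.

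Protein arginine methyltransferases (PRMTs) attach methyl groups to arginine. Type I enzymes, which MS023 inhibits as a class, make asymmetric dimethylarginine, and PRMT5, the main Type II enzyme, which GSK591 inhibits, makes symmetric dimethylarginine. The Sm proteins that form the core of spliceosomal snRNPs are classical PRMT5 substrates, and many RNA-binding proteins carry asymmetric marks. Introns that stay in otherwise finished polyadenylated transcripts are called retained or detained introns, and such transcripts are often held in the nucleus.

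Each event has an inclusion form and a skipping form, and Ψ is the share of the inclusion form after each form's reads are divided by its effective length. ΔΨ is the mean Ψ of the co-treated libraries minus that of the MS023 libraries. The 5 event types are retained introns (RI), skipped exons (SE), mutually exclusive exons (MXE, in which Ψ is the share of the upstream exon), and exons with a choice of 3′ site (A3SS) or of 5′ site (A5SS, in both of which Ψ is the share of the longer exon). An event was tested where every one of the 6 libraries had at least 10 reads and each form was seen, and it was called at an adjusted p under 0.05 in a quasi-binomial model of the read counts with moderated dispersion. Read counts over the shared events summed to between 42315837 and 53342031 per library for SE and between 3430984 and 4181292 for RI. A read is counted in every event it overlaps, so these sums exceed the number of distinct reads. Ratios from few reads carry wide counting error, so the named events have at least 50 reads in every library. The largest changes of each type were named only from called events in which the 2 groups did not overlap. Such separation was seen in 50.8% of tested RI, 23.9% of SE, 24.6% of MXE, 24.8% of A3SS and 36.3% of A5SS events, called or not.

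The splice sites of 3 introns that rose and 2 that fell are shown to identify introns described in detail; no role of these sequences in the change was tested. GT and AG, the ends of the intron, are in capitals, and sequences are from hg19, 5′ to 3′ on the transcript strand. Each donor line has 3 exon and 6 intron bases, and each acceptor line has 20 intron and 3 exon bases.
SGSM3 donor: gtgGTgagt
SGSM3 acceptor: gcctgtgttcactgtggcAGgag
POLD1 donor: gagGTcagg
POLD1 acceptor: tgactgccatgtggccgcAGgac
ANKZF1 donor: aggGTttga
ANKZF1 acceptor: catgtcaggtttttccctAGgtt
COMMD4 donor: aagGTacgg
COMMD4 acceptor: ccacccaccccatctcacAGtga
SLC7A6 donor: ttgGTaagc
SLC7A6 acceptor: tcttctgtccctggcaccAGgct

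Adding GSK591 to MS023 raised intron retention across A549 transcripts. Of 3849 introns tested, 1726 in 1176 genes were called, 44.8% of those tested. Of these, 1531 rose, 39.8% of those tested, and 195 fell, which is 5.07%. The median ΔΨ was 0.112 among the introns that rose and fell by 0.0972 among those that fell. Changes of at least 0.1 were seen in 818 introns that rose and 95 that fell, and changes of at least 0.3 in 216 and 12. Over all tested introns, called or not, the median ΔΨ was 0.0242 (two-sided exact permutation test over 6 libraries, p = 0.1, the smallest that 3 against 3 allows). Higher inclusion made up 88.7% of the RI calls, against 34.5% of the SE calls.

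**Figure D1:**
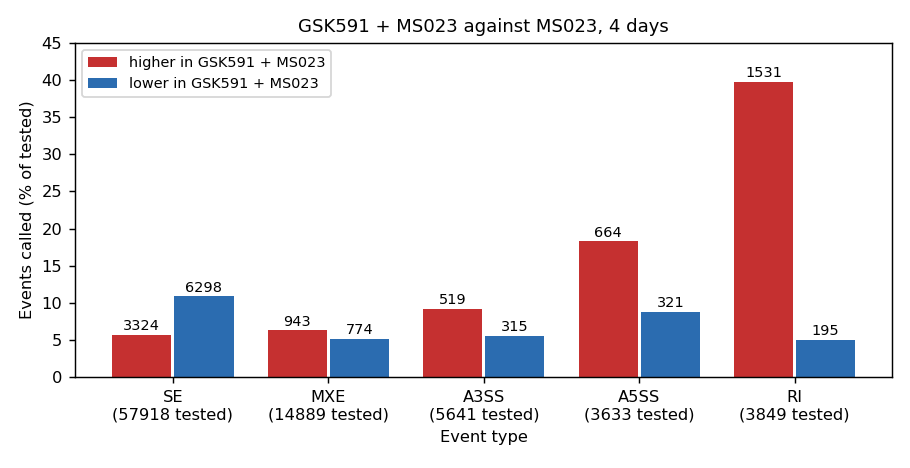
Percent of tested events called in GSK591 + MS023 against MS023 at 4 days, by event type, with the number of events over each bar (red higher, blue lower in co-treatment). Retained introns have 1531 higher against 195 lower, and skipped exons have 3324 higher against 6298 lower.

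Among 3729 introns with at least 10 reads in every 4-day library, the median Ψ was 0.153 to 0.16 in the DMSO libraries, 0.136 to 0.143 in the MS023 libraries, 0.249 to 0.261 in the GSK591 libraries and 0.244 to 0.248 in the co-treated libraries. The co-treated and the MS023 libraries did not overlap. The number of these introns with Ψ above 0.5 was 1166 to 1189 in MS023 and 1347 to 1366 in co-treatment.

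In POLD1, the catalytic subunit of DNA polymerase delta, intron 22 of 26 (chr19:50919084-50919652) had Ψ of 0.169, 0.129 and 0.138 in MS023 and 0.709, 0.711 and 0.753 in co-treatment. ΔΨ was 0.579 (log2 odds difference 3.93, SE 0.19, adjusted p = 3.79e-20, quasi-binomial model).

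SGSM3 encodes a modulator of small G proteins. Its intron 12 of 21 (chr22:40803333-40803416) had Ψ of 0.163, 0.195 and 0.158 in MS023 and 0.823, 0.784 and 0.874 in co-treatment, a ΔΨ of 0.655. DGKA, a kinase that turns diacylglycerol into phosphatidic acid, had Ψ of 0.104, 0.0 and 0.0637 in MS023 and 0.748, 0.727 and 0.62 in co-treatment at intron 10 (chr12:56333955-56334097), with as few as 51 reads in a library. FUK, the fucose kinase, had Ψ of 0.346, 0.163 and 0.231 in MS023 and 0.725, 0.96 and 0.929 in co-treatment at intron 7 (chr16:70501375-70501788). At intron 16 of KIAA0195 (chr17:73489184-73489571), Ψ was 0.255, 0.232 and 0.306 in MS023 and 0.873, 0.908 and 0.866 in co-treatment. No overlap of the groups was a condition for naming these introns. The adjusted p-values of these 4 ran from 5.54e-18 for KIAA0195 to 2.38e-08 for FUK. The libraries with GSK591 alone overlapped the co-treated ones in SGSM3, DGKA and FUK and lay above them in KIAA0195 and POLD1. SGSM3 had Ψ of 0.786, 0.76 and 0.82 with GSK591 alone and 0.267, 0.236 and 0.212 with DMSO.

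Introns that fell were fewer. COMMD4 (chr15:75631446-75632042), a COMM domain protein gene, had Ψ of 0.79, 0.689 and 0.738 in MS023 and 0.384, 0.349 and 0.206 in co-treatment, so Ψ fell by 0.426 (adjusted p = 6.85e-08). In SLC7A6, an amino acid transporter gene, the intron at chr16:68331380-68332393 had Ψ of 0.957, 0.941 and 0.886 in MS023 and 0.61, 0.628 and 0.589 in co-treatment (adjusted p = 3.21e-10, with 866 to 1513 reads per library). AAMP (chr2:219130670-219131165) had Ψ of 1.0, 1.0 and 0.804 in MS023 and 0.639, 0.592 and 0.515 in co-treatment. The MS023 libraries lay above the co-treated ones in all 3 genes, as the rule for naming required. In AAMP, 2 MS023 libraries were at 1.0 and the odds difference had an SE of 1.08 on the log2 scale. DCTN3, a subunit of the dynein activator dynactin, had Ψ of 0.608, 0.449 and 0.853 in MS023 and 0.236, 0.354 and 0.294 in co-treatment at chr9:34614766-34617881. Its MS023 libraries were far apart, and the call (adjusted p = 0.00819) was lost without MS023 replicate c (adjusted p = 0.0569) and with limma on log2 odds (0.0527). The COMMD4 and AAMP introns matched no intron of a GENCODE transcript exactly.

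**Figure D2:**
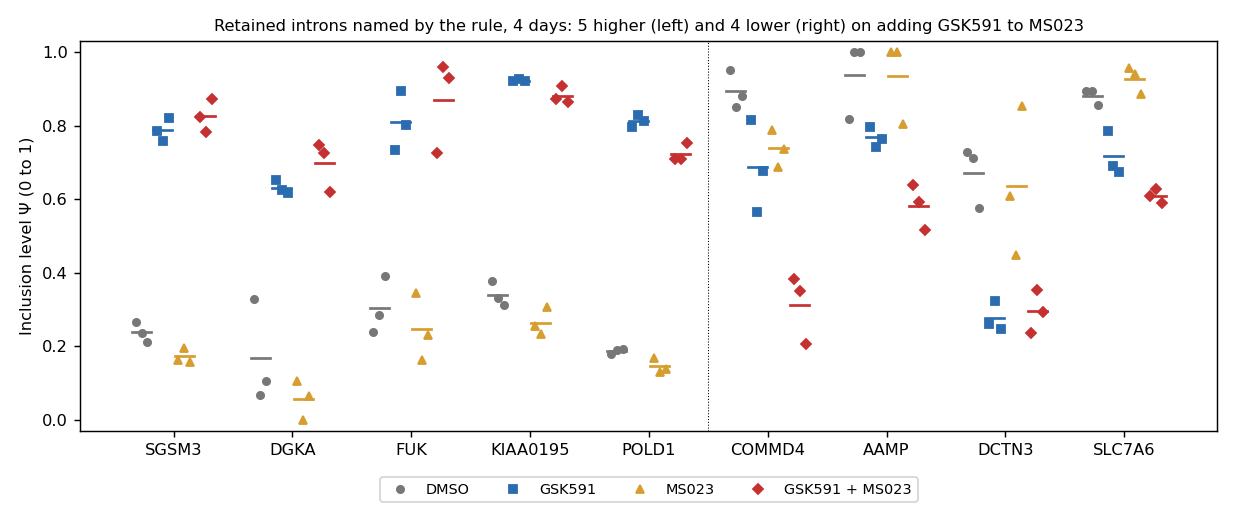
Ψ (vertical axis, 0 to 1) of 5 named introns that rose and 4 that fell, in each of 3 libraries (points) with the group mean (bar) for DMSO, GSK591, MS023 and GSK591 + MS023 at 4 days. SGSM3 lies between 0.158 and 0.195 in MS023 and between 0.784 and 0.874 in co-treatment, and COMMD4 lies between 0.689 and 0.79 in MS023 and between 0.206 and 0.384 in co-treatment.

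The introns the study followed by RT-qPCR, located here by exact matches of its junction primers, did not all move the same way at 4 days. The study's RT-qPCR of inhibitor-treated cells was at 2 days, with each inhibitor set against DMSO. ANKZF1 intron 9 (chr2:220099011-220099547), in a gene of ribosome-associated quality control, had Ψ of 0.312, 0.312 and 0.302 in MS023 and 0.795, 0.686 and 0.795 in co-treatment (ΔΨ 0.45, adjusted p = 1.51e-11). NOP2 intron 14 (chr12:6669493-6669612), in a gene for a nucleolar rRNA methyltransferase, had Ψ of 0.195, 0.161 and 0.187 in MS023 and 0.463, 0.511 and 0.523 in co-treatment (ΔΨ 0.318, adjusted p = 4.2e-15). Both groups were apart in each. GAS5 intron 9 (chr1:173833645-173833812), in a non-coding snoRNA host gene, had Ψ of 0.204, 0.18 and 0.185 in MS023 and 0.136, 0.184 and 0.146 in co-treatment. These groups overlapped, and Ψ fell by 0.0342 (adjusted p = 0.00693), a call that was lost without MS023 replicate a (adjusted p = 0.0532), without co-treatment replicate a (0.0852) or with limma on log2 odds (0.276). Ψ at this intron was 0.375, 0.316 and 0.323 in DMSO and 0.389, 0.361 and 0.382 in GSK591 alone. A longer GAS5 RI event with the same donor (chr1:173833443-173833812) had Ψ of 0.885, 0.858 and 0.807 in MS023 and 0.568, 0.553 and 0.569 in co-treatment. This interval holds the acceptor of intron 9 and bases of exon 10. Reads inside an event count as inclusion, so its Ψ can include exon 10 reads of transcripts without intron 9. The part of such reads was not tested. The study's primers at that donor cover the boundary of both events. A GAS5 A3SS event fell by 0.317 (adjusted p = 2.42e-22). At 2 days, adding GSK591 to MS023 gave GAS5 intron 9 a ΔΨ of 0.0536 (adjusted p = 0.00018, quasi-binomial model). It was 0.309 in ANKZF1 and 0.325 in NOP2.

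Introns that rose were shorter and richer in G and C than those that fell. Their median length was 234.0 bases against 459.0 for those that fell and 263.0 for those not called, and their median GC content was 58.1% against 53.5% and 56.5%. G was the last exon base in 74.5% of the introns that rose, 83.6% of those that fell and 82.6% of those not called. At the fourth intron base, A was present in 59.6%, 71.8% and 62.5%. The ends were GT and AG in 98.6%, 97.4% and 95.7%. The median number of reads per library differed too, at 345.5, 392.7 and 194.5, and its part in these differences was not tested. Calls of a rise were made in 41.6% of introns of up to 100 bases and 34.3% of those over 1000 bases, and calls of a fall in 2.08% and 10.3%.

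The starting level was read from the DMSO libraries, which do not enter the comparison. Introns with a mean DMSO Ψ of 0.1 to 0.3 rose in 58.2% of 734 cases, those up to 0.1 in 47.2% of 1544, and those over 0.7 in 16.6% of 1045. The median ΔΨ was 0.11 for introns starting between 0.3 and 0.7 and 0.00907 for those over 0.7, which have less room to rise. From the lowest to the highest band, falls were called in 2.98%, 5.45%, 9.89% and 6.03%. The median reads were 389.4, 215.4, 151.7 and 226.7, and the part of reads and of the bounded scale was not tested.

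Several introns of 1 gene were often called, and some of them can overlap or belong to different transcripts. Of 385 genes with at least 3 tested introns, 106 had 3 or more that rose, 26 had every tested intron rise, 51 had no call and 52 had introns called in both directions. VPS28, a subunit of the ESCRT-I sorting complex, had 7 of 9 introns called higher and none lower, and FASTK, a mitochondrial RNA regulator, had 5 of 6. TTC31 had all 5 of its tested introns higher. These 3 genes were picked after their values were seen, from the genes with the most introns that rose.

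Among skipped exons, more calls were of lower than of higher inclusion. Of 57918 events tested, 9622 were called (16.6%), of which 6298 had lower inclusion (10.9%) and 3324 higher (5.74%). Changes of at least 0.1 were seen in 2833 events that fell and 1465 that rose. The median ΔΨ over all tested events was -0.000988 (exact permutation p = 0.1, the smallest possible). The SE count depended on the test and on single libraries: limma on log2 odds called 2066, and leaving out MS023 replicate a, b or c gave 6136, 5983 and 6212. Taking 1 event per exon, the exons that fell had a median length of 100 bases, against 136 for those that rose and 120 for those not called, and 3.17%, 9.4% and 4.81% were over 300 bases. The median MS023 Ψ of these sets differed too, at 0.957, 0.621 and 0.986, and exons near full inclusion have little room to rise. Among exons with an MS023 Ψ of 0.1 to 0.9, 1411 fell, 1089 rose and 4231 were not called, a more even split than over all SE events. In this range the length was a multiple of 3 in 49.8% of those that fell. It was so in 49.4% of those that rose and 43.5% of those not called. Their median reads were 180.7, 186.3 and 79.17, and the part of reads and starting Ψ in these differences was not tested.

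Of the named exons, the one that fell most was a 51-base exon of SNHG1 (chr11:62622360-62622410), a non-coding host of small nucleolar RNAs. Its Ψ was 0.812, 0.838 and 0.813 in MS023 and 0.0951, 0.107 and 0.0931 in co-treatment (log2 odds difference -5.41, SE 0.17, adjusted p = 6.13e-99). With limma on log2 odds the adjusted p was 0.0217. In ASPM, which organises spindle poles, the 4755-base exon 18 of 28 (chr1:197069561-197074315) had Ψ of 0.802, 0.826 and 0.854 in MS023 and 0.278, 0.224 and 0.181 in co-treatment. Exon 4 of IFT27, a small GTPase of intraflagellar transport (chr22:37162182-37162241), had Ψ of 0.99, 0.977 and 0.995 in MS023 and 0.534, 0.322 and 0.381 in co-treatment. In all of these the co-treated libraries lay below every MS023 library, as the rule for naming required. Exon 4 of SDR39U1, a short-chain dehydrogenase gene (chr14:24910880-24911001), fell by 0.584 (adjusted p = 1.72e-34).

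Of the named exons that rose, that of FUT8, the enzyme of core fucosylation, had the highest ΔΨ. Its 102-base exon (chr14:66083808-66083909) had Ψ of 0.0613, 0.0532 and 0.0407 in MS023 and 0.575, 0.638 and 0.547 in co-treatment (log2 odds difference 4.71, SE 0.42, adjusted p = 6.77e-28). With limma on log2 odds the adjusted p was 0.0217. NDEL1, a regulator of dynein, had Ψ of 0.111, 0.093 and 0.0778 in MS023 and 0.582, 0.613 and 0.604 in co-treatment at an untranslated exon (chr17:8347245-8347494). PIGF, of GPI anchor synthesis, rose by a ΔΨ of 0.518 at chr2:46818942-46819064, and SCAF11, an SR-related protein gene, by 0.516 at a 1545-base exon (chr12:46367973-46369517). The co-treated libraries lay above the MS023 libraries in all 4 genes, which was a condition for naming them.

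Alternative splice sites moved towards the longer exon more often than away from it. At 5′ sites, 985 of 3633 events were called (27.1%), 664 higher (18.3%) and 321 lower (8.84%). At 3′ sites, 834 of 5641 were called (14.8%), 519 higher (9.2%) and 315 lower (5.58%). The median ΔΨ over all tested events was 0.00469 and 0.00191 (exact permutation p = 0.1 each, the smallest possible). The median distance between the alternative sites was 91.0 bases for A3SS events that rose, 66.0 for those that fell and 42.0 for those not called. Sites 3 bases apart made up 1.54%, 5.4% and 13.7%. A longer added segment can collect more reads, and its part in which events were called was not tested. The added segment overlapped an intron called higher as RI in 15.6% of the A3SS events that rose, 16.5% of those that fell and 8.59% of those not called. For A5SS the shares were 12.3%, 24.0% and 13.2%, so some of these calls can share reads with retention calls. Limma on log2 odds called 453 A5SS and 126 A3SS events.

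RNF216, an E3 ubiquitin ligase gene, showed the largest change of any named event. The acceptors of its longer and shorter exon, 269 bases apart (chr7:5778984-5779252), are shown because their use was nearly exchanged, with AG in capitals.
RNF216 longer exon acceptor: gattccctttgtctagacAGaga
RNF216 shorter exon acceptor: atgttcttatttgtttctAGgaa
The longer form had Ψ of 0.0391, 0.0253 and 0.0261 in MS023 and 0.822, 0.849 and 0.778 in co-treatment (log2 odds difference 7.16, SE 0.4, adjusted p = 3e-133). With limma on log2 odds the adjusted p was 0.00452. PLD3, a member of the phospholipase D family, rose by 0.471 at a site 35 bases away. SNHG1 had Ψ of 0.905, 0.916 and 0.925 in MS023 and 0.471, 0.477 and 0.486 in co-treatment at a 3′ site (chr11:62621306-62621536).

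At 5′ sites, NT5C, a nucleotidase gene, had Ψ of 0.18, 0.167 and 0.15 in MS023 and 0.68, 0.719 and 0.706 in co-treatment (chr17:73127060-73127139). ENSA, which encodes an inhibitor of the phosphatase PP2A, had Ψ of 0.351, 0.333 and 0.335 in MS023 and 0.863, 0.791 and 0.857 in co-treatment (chr1:150599874-150599942). FXYD5, which modulates the sodium pump, had Ψ of 0.862, 0.899 and 0.86 in MS023 and 0.377, 0.336 and 0.344 in co-treatment (chr19:35657075-35657228). The groups were apart in all 3 genes, which was a condition for naming them, and the adjusted p-values were 1.19e-18, 3.01e-09 and 5.85e-20. PCBP4, a poly(C)-binding protein gene, fell by 0.461.

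The counts of mutually exclusive exons were closer to even. Of 14889 events, 1717 were called (11.5%), 943 higher (6.33%) and 774 lower (5.2%), and the median ΔΨ over all tested was -0.000549 (exact permutation p = 0.6). Limma on log2 odds called 678. In U2AF1, which recognises the 3′ splice site AG, 2 exons of 67 bases each were alternatives, of which the downstream one lies at chr21:44520563-44520629. Ψ was 0.236, 0.249 and 0.218 in MS023 and 0.606, 0.572 and 0.561 in co-treatment. The upstream exon thus gained (adjusted p = 1.08e-50, and 0.00516 with limma on log2 odds). FGFR3, a growth factor receptor gene, rose by a ΔΨ of 0.538 between exons of 151 and 145 bases. In TPM2, a tropomyosin gene, the upstream of its 76-base exons had Ψ of 0.64, 0.584 and 0.655 in MS023 and 0.274, 0.276 and 0.287 in co-treatment. EEF1D and ULK3 fell by 0.472 and 0.426.

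Gene lists are described by counts beside those of all genes, with no test of a list. Over all events, 5539 of 10612 tested genes had a call (52.2%), and 17.3% of 85930 events were called. A gene with more tested events has more chances of a call, and the number of events per gene differed between lists. Of 26 tested hnRNP genes, 25 had a call, and 26.4% of their 383 events were called, beside 17.3% of all events. Of their 24 tested introns, 14 rose and 1 fell (median ΔΨ 0.0527), beside 39.8%, 5.07% and a median of 0.0242 over all introns. PCBP2, a poly(C)-binding protein of this list, had Ψ of 0.621, 0.633 and 0.62 in MS023 and 0.0935, 0.0931 and 0.0934 in co-treatment at its 39-base exon 12 (chr12:53861589-53861627). EWSR1, an RNA-binding protein gene, had an intron that rose by a ΔΨ of 0.424 (chr22:29694886-29695184). Of 11 SR protein genes, 10 had a call, and 33.0% of their 88 events were called. They had 15 SE events higher and 7 lower of 53, beside 5.74% higher and 10.9% lower over all SE events. Of their 9 tested introns, 2 rose and 0 fell, with a median ΔΨ of -0.0114. TRA2B rose by a ΔΨ of 0.226 at a 276-base exon and SRSF10 fell by 0.201 at a 51-base exon.

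Of 26 Sm and U snRNP protein genes, 11 had a call (42.3%), beside 52.2% of all tested genes. Of their 167 events, 28 were called (16.8%), beside 17.3% of all events. Neither of their 2 tested introns was called. Of 44 other spliceosome genes, 25 had a call (56.8%, beside the same 52.2%). In them, 11 of 22 introns rose and 1 fell, beside 39.8% and 5.07% over all introns. PRPF40B fell by 0.374 at exon 7 and PRPF39 by 0.31 at an exon of a transcript annotated for nonsense-mediated decay. Among splicing kinases, 5 of 14 introns rose and 1 fell, near the 39.8% and 5.07% over all introns. CLK4 had Ψ of 0.537, 0.663 and 0.538 in MS023 and 1.0, 0.917 and 1.0 in co-treatment at a 3′ site, from 53 to 89 reads per library. Among mRNA export and exon junction genes, 10 of 20 introns rose and 2 fell, beside the same 39.8% and 5.07%. THOC6, of the THO complex, had Ψ of 0.0384, 0.0454 and 0.0442 in MS023 and 0.402, 0.434 and 0.378 in co-treatment at its intron 2 (chr16:3075825-3075924).

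Of the arginine methyltransferase genes themselves, 9 of 11 had a call (81.8%), beside 52.2% of all tested genes. By event, 32 of 115 were called (27.8%), beside 17.3% of all events. These genes had 10 SE events higher and 15 lower of 76, beside 5.74% and 10.9% over all SE events. PRMT7 exon 4 had Ψ of 0.943, 0.892 and 0.943 in MS023 and 0.722, 0.718 and 0.68 in co-treatment. CARM1, also known as PRMT4, fell by 0.209 at exon 10 of a transcript annotated for decay, and PRMT2 rose by a ΔΨ of 0.139 at exon 11. The groups were apart in each.

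Among snoRNA host genes, 9 of 20 introns fell and 6 rose (median ΔΨ -0.0272), beside 5.07%, 39.8% and a median of 0.0242 over all introns. Apart from SNHG1 and GAS5, SNHG5 had Ψ of 0.9, 0.908 and 0.909 in MS023 and 0.534, 0.537 and 0.539 in co-treatment at a 5′ site (chr6:86387513-86387671), with 5298 to 6575 reads per library. Several events of this list share introns and reads within GAS5 and SNHG1. Introns of GAS5, ANKZF1 and NOP2 together had 7 lower and 3 higher of 16 tested. Many of the 9 falls among snoRNA host genes may thus come from overlapping introns of GAS5 alone. Cytosolic ribosomal protein genes had 26 of 80 introns higher and 12 lower, beside 39.8% and 5.07% over all introns, with a median ΔΨ of 0.000372. RPS7 rose by a ΔΨ of 0.34 at its first intron, and RPS25 fell by 0.364 at an exon. Many ribosomal protein genes have processed pseudogenes, so their reads may be split in mapping.

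DNA repair genes had 13 of 31 introns higher and none lower, near the 39.8% higher over all introns. Of their 703 SE events, 86 were lower and 29 higher, near the 10.9% and 5.74% over all SE events. RAD52, of homologous recombination, had Ψ of 0.739, 0.769 and 0.792 in MS023 and 0.291, 0.358 and 0.32 in co-treatment at exon 10 (chr12:1023597-1023698). LIG1, the replicative DNA ligase, had Ψ of 0.0328, 0.0329 and 0.0509 in MS023 and 0.42, 0.536 and 0.434 in co-treatment at a 3′ site (chr19:48640946-48641016). Among mitosis genes, 8 of 28 introns rose and 1 fell, a lower share of rises than the 39.8% over all introns. CENPT, a kinetochore protein gene, rose by a ΔΨ of 0.36 at intron 11, and exons of NCAPG2, of condensin II, and ANAPC7, of the anaphase-promoting complex, fell by 0.336 and 0.286.

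Among p53 and apoptosis genes, 14 of 31 had a call (45.2%), beside 52.2% of all tested genes. CASP8, the initiator caspase of death receptors, had Ψ of 0.238, 0.197 and 0.184 in MS023 and 0.57, 0.603 and 0.584 in co-treatment at a 5′ site (chr2:202141692-202141827). In BAX, a pore-forming pro-apoptotic protein, intron 2 (chr19:49458857-49458943) had Ψ of 0.116, 0.144 and 0.122 in MS023 and 0.301, 0.3 and 0.333 in co-treatment. The groups were apart in both genes. The counts of introns that follow stand beside 39.8% higher and 5.07% lower over all introns. Histone lysine methylation genes had 5 of 24 introns higher and 2 lower, and EHMT2, the G9a methyltransferase, fell by 0.459 at exon 10. Among transcription kinases and RNA polymerase II genes, 6 of 15 introns rose and 2 fell, and CDK10 rose by a ΔΨ of 0.493 at an exon. Nonsense-mediated decay genes had 16 of 140 events called (11.4%), beside 17.3% of all events, with UPF3A exon 4 at a ΔΨ of -0.277. DEAD and DEAH box helicase genes had 24 of 45 introns higher and 3 lower, with DDX11 up by a ΔΨ of 0.367, and aminoacyl-tRNA synthetase genes had 10 of 31 higher and 2 lower. Of 34 tested genes listed for known isoform switches, 27 had a call (79.4%), as did 13 of the 14 A549 markers (92.9%), beside 52.2% of all tested genes. By event, 27.4% of 453 and 33.0% of 306 were called, beside 17.3% of all events. The part of read depth and events per gene in these shares was not tested. In the former list, CLSTN1 had Ψ of 0.546, 0.583 and 0.595 in MS023 and 0.0733, 0.0655 and 0.114 in co-treatment at its 57-base exon 11 (chr1:9797556-9797612). With limma on log2 odds, adjusted p-values of events named from these lists missed the threshold in TRA2B (0.21), PUF60 (0.169), ACIN1 (0.166), UPF3A (0.113), SRSF10 (0.0718), PRPF40B (0.0631) and PRMT7 (0.0579).

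To see whether GSK591 did the same to cells that had MS023 and to cells that had not, GSK591 was compared with DMSO at 4 days in 6 other libraries. There, 38.2% of introns and 10.6% of SE events were called. Of 3729 introns tested in both, 1214 were called in both, 71.1% of the calls on MS023 and 81.8% of those on DMSO; 1207 had the same direction and 7 the opposite. Spearman's rho of ΔΨ across these introns was 0.702 (a description across introns, which are not independent and share reads and gene depth). For SE events, 4327 were called in both, 46.0% and 56.2% of the calls, and 4266 had the same direction.

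The difference between the GSK591 effect on MS023 and on DMSO was tested with an interaction term on the log odds scale. Its p-values, here and for the days below, are not those of the printed differences of ΔΨ. It was called for 86 of 3782 introns (2.27%), 374 of 60614 SE (0.617%), 112 of 13493 MXE (0.83%), 35 of 5603 A3SS (0.625%) and 34 of 3637 A5SS events (0.935%). With limma on log2 odds the counts were 1, 1, 0, 0 and 2, so these calls depend on the test; 7095 SE and 529 RI events had an unadjusted p under 0.05 in the main model. Of the 86 introns, 64 had a more positive effect on MS023, and in 44 a rise was larger on MS023 than on DMSO, against 7 in which it was smaller.

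In FUT8, GSK591 against DMSO missed the threshold (adjusted p = 0.0662), with Ψ of 0.0837, 0.0522 and 0.0884 in DMSO and 0.113, 0.143 and 0.159 in GSK591, whereas the effect on MS023 was larger by 0.471 (interaction adjusted p = 0.00064). ENSA also missed it (adjusted p = 0.132), with 0.199, 0.17 and 0.176 in DMSO and 0.292, 0.222 and 0.242 in GSK591, and an effect larger by 0.427 on MS023 (adjusted p = 0.000514). In ACIN1, of the exon junction complex, an exon had Ψ of 0.48, 0.397 and 0.454 in DMSO and 0.523, 0.433 and 0.445 in GSK591, but 0.528, 0.492 and 0.438 in MS023 and 0.304, 0.246 and 0.215 in co-treatment (adjusted p = 0.0183). In these 3 genes the co-treated libraries stood apart from all 9 others. With limma on log2 odds the interaction missed the threshold in FUT8 (adjusted p = 0.215) and ENSA (0.0995). In PCBP2 and CLSTN1, inclusion fell with GSK591 on either background, and the effects differed by -0.083 (interaction adjusted p = 2.53e-05) and -0.174 (0.00088). Limma on log2 odds called 1 SE interaction in all, so ACIN1, PCBP2 and CLSTN1 did not all pass it.

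**Figure D3:**
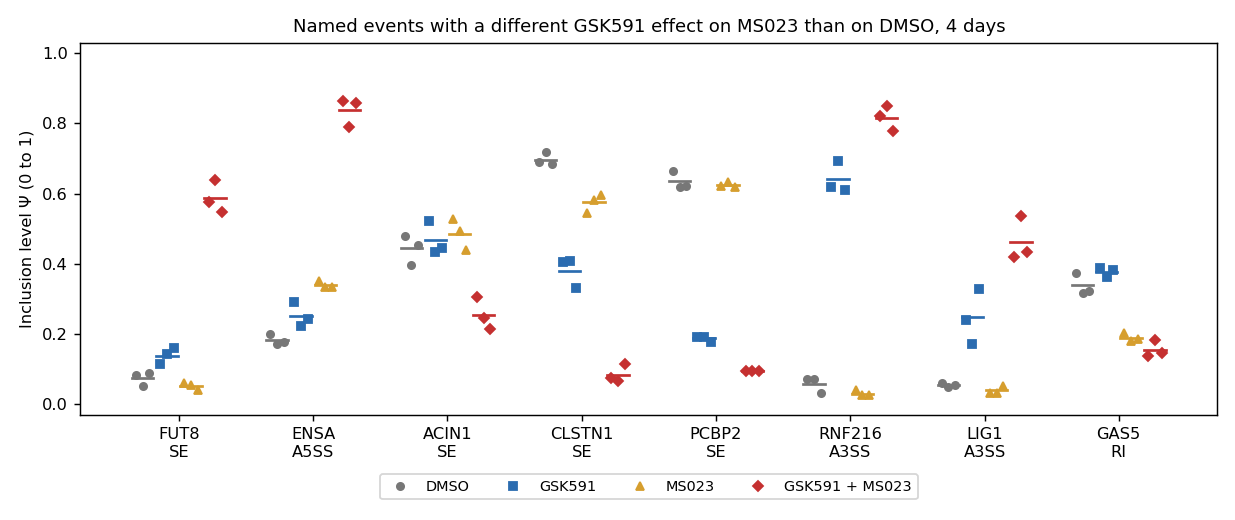
Ψ (vertical axis, 0 to 1) of 8 named events at 4 days, in 3 libraries per group (points) with the group mean (bar). Their GSK591 effect differed between MS023 and DMSO by the quasi-binomial interaction test. FUT8 lies between 0.547 and 0.638 in co-treatment and at or below 0.159 in the other 3 groups.

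**Figure D4:**
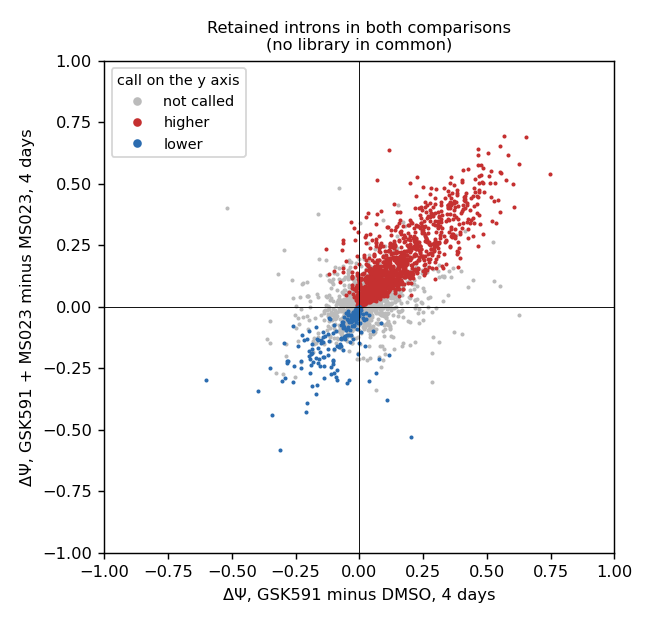
ΔΨ of retained introns for GSK591 minus DMSO (horizontal) and for GSK591 + MS023 minus MS023 (vertical), both at 4 days and with no library in common; colours give the call on the vertical axis. Spearman's rho over the 3729 introns tested in both is 0.702.

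At 2 days, co-treatment against MS023 called 39.8% of introns and 13.5% of SE events. Of 3672 introns tested at both times, 1245 were called at both, 73.1% of the 4-day calls and 83.2% of the 2-day calls, and 1239 had the same direction. The difference between the days was called for 56 of 3736 introns (1.5%), 63 of 55291 SE (0.114%), 38 of 13019 MXE (0.292%) and 6 of 3483 A5SS events (0.172%). In A3SS it was called for 0 of 5390 (0.0%) by the quasi-binomial model, with 450 at an unadjusted p under 0.05, and for 0 by limma. Limma called 0 introns, 0 SE, 0 MXE and 1 A5SS event. Of the 56 introns, 35 rose by more at 4 days and 2 by less. PCBP2 had Ψ of 0.64, 0.638 and 0.655 in MS023 and 0.165, 0.163 and 0.137 in co-treatment at 2 days, so the effect at 4 days minus that at 2 days was -0.0416 (interaction adjusted p = 0.00325).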

How the data were processed

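Poly(A)-RNA was sequenced from A549 cells. Per the labels and the study's methods, the authors trimmed reads with Trim Galore (0.6.5), aligned them to hg19 with STAR (2.4.2a) and counted events with rMATS; the tables are named for version 4.0.2, while the study's resource list names another version. The deposited values are other than a single number: each cell holds 3 whole-number counts of inclusion or skipping reads, 1 per library, including reads inside the event. The authors' p-values, Ψ and ΔΨ columns, which compare each treatment with DMSO, were not used. The co-treatment and MS023 tables were counted separately and joined on identical events; their shared DMSO counts were identical. Of 8 tables, 5 were read.

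Ψ was computed with the tables' effective lengths. A quasi-binomial model (R 4.3.3) with dispersion moderated by limma (3.58.1) within the event type and held at 1 or above was tested with an F test, with Benjamini-Hochberg adjustment within the type. Events needed 10 reads in every library and both forms. The model was tested on simulated data: the share of false calls exceeded the nominal one for SE and MXE, and counts of those types are less certain. A first simulation failed the limit set on false SE calls, after which the simulation was revised and that limit loosened. Replicate libraries differed by more than counting noise (chi-square per degree of freedom 2.75 to 5.03). Named events were called, had at least 50 reads in every library and did not overlap between groups, ranked by absolute ΔΨ, 1 per gene and type, plus 3 per gene list (no overlap criterion) and the RT-qPCR introns; 1 event that this rule picks is not reported here. Members and lists were chosen with earlier results of these data known. Splice sites came from hg19, and 99.53% of tested introns had standard ends. Intron and exon numbers came from GENCODE v44 lifted to GRCh37. The p-values and counts cover these libraries only. Alternatives are given in the closing section.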

Additional observations from a re-analysis of the deposited data

Results flagged for a closer look

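Among the events named by the rule, these had a GSK591 effect that differed between backgrounds or days in the interaction test (adjusted p under 0.05, quasi-binomial model). Values are differences of ΔΨ, whereas the test was of log odds. Limma on log2 odds called 1 SE, 2 A5SS and 1 RI event between backgrounds and 1 A5SS event between days. On MS023 minus on DMSO at 4 days, the difference was 0.471 in FUT8, 0.427 in ENSA, 0.232 in LIG1, 0.203 in RNF216 and 0.0837 in PUF60. It was 0.116 for the NDEL1 exon and 0.118 for the SNHG1 MXE event. It was -0.288 in RPL17, -0.254 in ACIN1, -0.222 in ASPM, -0.176 for the SNHG1 exon, -0.174 in CLSTN1, -0.147 in FXYD5, -0.132 in TPM2, -0.083 in PCBP2 and -0.0734 for GAS5 intron 9. At 4 minus 2 days, the difference was -0.12 in CLSTN1, -0.0971 in ALDH3A1, -0.0901 in TPM2, -0.0877 for GAS5 intron 9 and -0.0416 in PCBP2. GAS5 intron 9 had a ΔΨ of 0.0536 at 2 days and -0.0342 at 4 days.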

How the results depend on the processing

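No paired analysis was possible because the 3 counts in a cell carry no replicate numbers, and the letters a, b and c only give the order in a cell. Minimums of 1 or 20 reads, adjustment over all types, each form in at least 10 reads, and a dispersion trend (the last 2 chosen after seeing the data) kept the counts of calls within 1.5 times. With limma on log2 odds, 2066 SE, 678 MXE, 126 A3SS and 453 A5SS events were called, and with each event's own dispersion 435, 68, 2, 247 and 1080 RI. With a ΔΨ of at least 0.1 as well, 4298, 871, 393, 517 and 913 RI were. Leaving out 1 library gave 5983 to 7531 SE, 1199 to 1441 MXE, 561 to 713 A3SS, 745 to 842 A5SS and 1537 to 1624 RI. For the interaction with MS023, limma called 1 SE, 0 MXE, 0 A3SS, 2 A5SS and 1 RI, and for that with time 0 SE, 0 MXE, 1 A5SS and 0 RI.

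Median ΔΨ over tested events moved with a minimum of 1 read to -0.00103 (SE), 0.00221 (A3SS), 0.0056 (A5SS) and 0.0257 (RI), with 20 reads to -0.000941, 0.00172, 0.00392 and 0.0231, with each form in at least 10 reads to -0.00345, 0.00265, 0.00822 and 0.0284, and without the effective lengths to -0.000575, 0.00138, 0.00305 and 0.0301. Leaving out 1 library gave -0.00157 to -0.000691 (SE), -0.000959 to 8.41e-05 (MXE, reversed without MS023 replicate a), 0.00175 to 0.0023 (A3SS), 0.00415 to 0.00551 (A5SS) and 0.0234 to 0.0256 (RI). The cause was not tested. Of 90 named events, 66 were called with limma and 45 with their own dispersion, and none changed direction under the alternatives run.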
